A study of Mus musculus with 12 samples.

Results

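The CC chemokine ligands described here are the products of 10 genes, Ccl2, Ccl3, Ccl4, Ccl5, Ccl6, Ccl7, Ccl9, Ccl17, Ccl22 and Ccl24. They were taken by gene symbol, with earlier results of these data known, from the 43430 genes of an expression table of mouse alveolar macrophages. Alveolar macrophages are phagocytes that live in the airspaces of the lung, and their RNA was sequenced here in a mouse model of lung transplantation. There were 4 libraries from naive lungs, 4 taken 2 h and 4 taken 24 h after blood was let back into the transplanted lung (reperfusion). All 12 are labelled male, 14 weeks old and Cx3cr1gfp/+B6, so the reporter allele, which replaces 1 copy of Cx3cr1, is shared by the controls. The word Allo appears in the titles of the 8 reperfusion libraries without an explanation. The labels do not say whether each library came from its own mouse, so p-values reflect only the variation among these libraries, possibly technical.

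CC chemokines are small secreted proteins that guide leukocytes through receptors coupled to G proteins, and the family is named for a pair of adjacent cysteines near the start of the mature chain. Ccl2 and Ccl7 attract monocytes through Ccr2, and Ccl3, Ccl4 and Ccl5 attract monocytes and T cells, Ccl3 and Ccl5 in part through Ccr1. Ccl6 and Ccl9 belong to a branch of Ccr1 ligands found in mice with an additional exon, Ccl17 and Ccl22 attract T cells through Ccr4, and Ccl24 attracts eosinophils through Ccr3. In the lung, macrophages are a known source of several of these ligands after injury.

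Values are RPKM, the reads of a gene per kilobase of its length, relative to the total of the library. Library totals read from the steps of these values were 6112586 to 8796071 reads in naive, 7242824 to 10347265 at 2 h and 9129420 to 11997945 at 24 h. All 18 alveolar macrophage markers were detected in every group, with a summed level of 13098 to 13366 RPKM in naive, 9319 to 10532 at 2 h and 10440 to 12457 at 24 h. Chil3 was the largest part of that sum, with means of 7780 RPKM in naive, 4970 at 2 h and 7802 at 24 h. The list did not move as one. From naive to 24 h, mean Marco rose from 94.9 to 398 RPKM and mean Siglecf fell from 58.3 to 27.1. The eosinophil, basophil and mast cell markers summed to at most 0.324 RPKM in any library. H2-Ea-ps, the Ea gene that B6 mice are known not to transcribe, was at 0 to 0.184 RPKM in naive, 19.3 to 27.1 at 2 h and 1.48 to 5.20 at 24 h. The reads of the reperfusion libraries therefore went against a pure B6 label, and a difference of time after reperfusion cannot be told apart from a difference in the genotype of cells in these libraries. In bulk RNA, fewer cells of a type and less RNA per cell cannot be told apart either.

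The 10 genes lie on 3 chromosomes of the GRCm38 assembly. Ccl2 (chr11:82035571-82037453, plus strand) and Ccl7 (chr11:82045712-82047525, plus strand) are neighbours, with starts 10.1 kb apart. Ccl5 (chr11:83525778-83530518, minus), Ccl9 (chr11:83572919-83578636, minus), Ccl6 (chr11:83587882-83593087, minus), Ccl3 (chr11:83647844-83649355, minus) and Ccl4 (chr11:83662584-83664683, plus) form a second stretch of the same chromosome. Ccl22 (chr8:94745590-94751699, plus) and Ccl17 (chr8:94810453-94812036, plus) are 64.9 kb apart, and Ccl24 (chr5:135569937-135573049, minus) stands alone. Ccl6 and Ccl9 have 4 exons in the annotation and the other 8 genes have 3. The coding bases around the paired cysteines that give the family its name, from the annotated transcripts, are shown for 5 of the members that rose at 2 h and for Ccl22, with the 2 adjacent cysteine codons in capitals.
Ccl2: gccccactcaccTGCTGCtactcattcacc
Ccl4: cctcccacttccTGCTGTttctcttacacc
Ccl6: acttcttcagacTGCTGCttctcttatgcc
Ccl9: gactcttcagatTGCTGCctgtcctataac
Ccl17: gtaggccgagagTGCTGCctggattacttc
Ccl22: gaagacagtatcTGCTGCcaggactacatc

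Sequence sharing bears on whether reads of one ligand could be counted for another. No run of 25 bases of Ccl2, Ccl3, Ccl4, Ccl7, Ccl17 or Ccl22 transcripts occurred in the annotated transcripts of another gene. Of the 25-base runs of Ccl9, 5.89% occurred elsewhere, the longest shared stretch being 73 bases with Ppp1r7, which is no chemokine. The shares were 2.57% for Ccl5, 1.41% for Ccl6 and 1.01% for Ccl24, and the longest stretch of each was again shared with a gene outside the family. The partners of shorter stretches were not recorded. On the opposite strand, Gm17268 overlaps Ccl2 and E230016K23Rik overlaps Ccl6, and without a stated strand setting the reads of such partners cannot be told apart. Gm17268 was at 0 in all naive and 2 h libraries and at 0 to 1.59 RPKM at 24 h, where Ccl2 was at 1.40 to 1.66, and E230016K23Rik was at most 3.95 RPKM in any library.

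The level of the family was set by Ccl6. Ccl6 held 98.0% ± 0.228 of the reads of the 10 ligands in naive, 94.5% ± 0.220 at 2 h and 98.2% ± 0.363 at 24 h (SD, n = 4 libraries each). Its reads were 0.343 to 0.397% of all counted reads in naive, 0.425 to 0.483% at 2 h and 0.351 to 0.391% at 24 h. The other 9 ligands together took 0.00605 to 0.00892% of all counted reads in naive, 0.0256 to 0.0277% at 2 h and 0.00507 to 0.00858% at 24 h. All 4 libraries at 2 h thus stood above the 8 others on that sum, and the naive and 24 h libraries overlapped.

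By RPKM, the order in naive was Ccl6, Ccl3, Ccl9, Ccl17, Ccl22, Ccl5, Ccl2, Ccl4, Ccl7 and Ccl24. Libraries of neighbours in that order overlapped for Ccl3 and Ccl9, for Ccl17 and Ccl22, for Ccl5, Ccl2 and Ccl4 taken in turn, and for Ccl7 and Ccl24. RPKM depends on the gene length used by the authors, which was longer than the annotated exons for Ccl2 (1909 against 1138 bases), Ccl6 (2658 against 1795), Ccl5 (1199 against 960), Ccl9 (3404 against 3045) and Ccl22 (2625 against 2325). At the exon length Ccl9 came before Ccl3 and Ccl2 before Ccl5 in naive, Ccl2 came before Ccl22 at 2 h, and Ccl6 stayed first in all 3 groups. At 2 h the order was Ccl6, Ccl3, Ccl9, Ccl17, Ccl22, Ccl2, Ccl4, Ccl7, Ccl5 and Ccl24, so that Ccl5 came after Ccl2, Ccl4 and Ccl7. Libraries of all neighbours from Ccl17 to Ccl5 in that order overlapped. At 24 h the order was Ccl6, Ccl3, Ccl9, Ccl17, Ccl22, Ccl2, Ccl5, Ccl4, Ccl7 and Ccl24, with overlap of Ccl3 and Ccl9, of Ccl17 and Ccl22, of Ccl5 and Ccl4 and of Ccl4 and Ccl7.

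**Figure D1:**
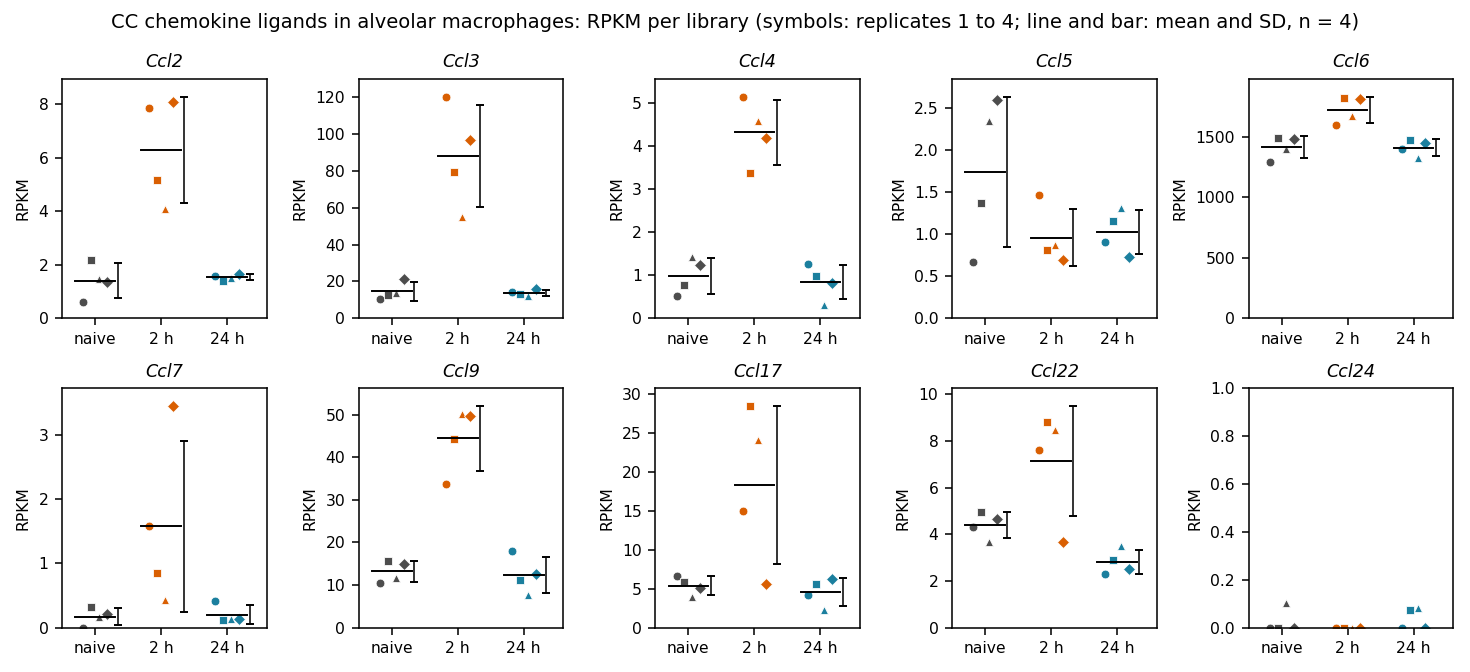
RPKM (y axis, linear, from 0) of the 10 ligand genes in the naive, 2 h and 24 h libraries (x axis), with a symbol for each of the replicates 1 to 4, a line at the mean and a bar for the SD (n = 4), neither drawn for Ccl24. Ccl3 is between 54.8 and 120.49 RPKM at 2 h and at most 21.6 in the other libraries, while replicate 4 at 2 h lies among the naive libraries for Ccl17 and Ccl22.

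Of the 10 ligands, 8 passed the filter of at least 1 RPKM in at least 4 of the 12 libraries, which was met by 11419 genes. Ccl7 and Ccl24 did not pass. Ccl4 passed only with its 2 h libraries, the group where it was highest. Outside them it reached 1 RPKM only in naive replicates 3 and 4 and in 24 h replicate 1. Its place in the counts below is conditional on that. In the fit over all tested genes (limma on log2(RPKM + 1), Benjamini-Hochberg adjusted p under 0.05), 6 of the 8 were higher at 2 h than in naive and none was lower. The background for that count was 14.7% of tested genes higher at 2 h, that is 1675 genes higher beside 2514 lower. With median-ratio scaling of the libraries that split was 2062 higher and 2043 lower. At 24 h none of the 8 passed against naive, where 45.9% of tested genes passed in either direction. At an unadjusted p under 0.05 the limma fit had only Ccl22 in that comparison, and limma voom on the recovered reads also called none after adjustment. From 2 h to 24 h, 7 of the 8 were lower, against 21.5% of tested genes. Each pair of these comparisons shares a group of libraries, so their counts are not independent.

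**Figure D2:**
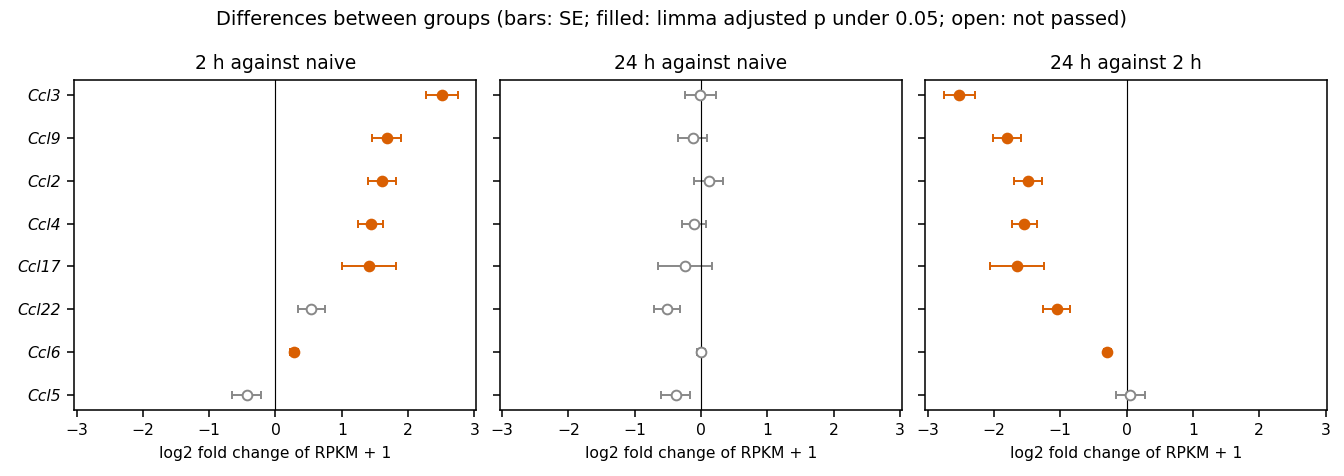
Log2 fold change of RPKM + 1 (x axis) with its SE for the 8 tested ligands (y axis) in 3 comparisons, filled where the limma adjusted p is under 0.05. Ccl3 is highest at 2 h with 2.51, all 8 symbols of 24 h against naive are open, and only Ccl5 is open in 24 h against 2 h.

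Ccl3, which attracts monocytes, neutrophils and other leukocytes, in part through Ccr1, had the largest rise among the tested ligands. Its RPKM was 10.2, 12.5, 13.8 and 21.6 in naive, 120.49, 79.5, 54.8 and 96.97 at 2 h and 14.4, 13.3, 12.2 and 16.0 at 24 h, in the order of the replicates 1 to 4. Every 2 h library was above every other library, and the naive and 24 h libraries overlapped. The mean rose 6.05-fold at 2 h (log2 fold change 2.51 ± 0.24 SE, limma adjusted p = 2.49e-05) and fell by 2.52 from 2 h to 24 h in log2 units (adjusted p = 4.28e-06). Between 361 and 949 reads per library lay behind the 2 h values.

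Ccl4, the neighbour of Ccl3 and a known attractant of monocytes and T cells, passed the test in the same comparisons and directions as Ccl3. Its RPKM was 0.517, 0.764, 1.42 and 1.24 in naive, 5.16, 3.37, 4.58 and 4.18 at 2 h and 1.26, 0.979, 0.318 and 0.830 at 24 h. The 2 h libraries did not overlap the others. The mean rose 4.39-fold (log2 fold change 1.44 ± 0.19 SE, limma adjusted p = 0.000186) and was 5.10-fold lower at 24 h than at 2 h (log2 fold change -1.54, adjusted p = 2.98e-05). With 3 to 7 reads per library in naive and 2 to 10 at 24 h, the naive and 24 h levels of Ccl4 rest on little sequence.

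Ccl2, the main attractant of Ccr2-bearing monocytes, was at 0.596, 2.18, 1.47 and 1.37 RPKM in naive, at 7.85, 5.16, 4.08 and 8.10 at 2 h and at 1.57, 1.40, 1.48 and 1.66 at 24 h. The 4 libraries at 2 h were all above the 8 others, and the 24 h libraries lay inside the naive range. The mean rose 4.49-fold (log2 fold change 1.60 ± 0.21 SE, limma adjusted p = 0.000232) and fell by 1.49 on the log2 scale from 2 h to 24 h (adjusted p = 0.000116). Ccl7, its neighbour and also a Ccr2 ligand, had 0, 2, 1 and 1 reads in naive, 13, 7, 3 and 20 at 2 h and 4, 1, 1 and 1 at 24 h. In RPKM these were 0 to 0.315, 0.436 to 3.45 and 0.115 to 0.416, with no overlap between 2 h and either other group. The difference of 1.01 in log2(RPKM + 1) between 2 h and naive had an exact two-sided permutation p of 0.0286, the smallest that 4 against 4 libraries allow, and 0.0857 after adjustment over 6 tests. With no filter, the fit over all genes (limma) gave Ccl7 an adjusted p of 0.0323 for 2 h against naive and 0.0253 for 24 h against 2 h.

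The markers of monocytes and neutrophils are given beside Ccl2 and Ccl7. The 9 monocyte markers summed to 19.2 to 21.6 RPKM in naive, 13.8 to 19.2 at 2 h and 11.9 to 16.6 at 24 h, and Ly6c2, which defines classical monocytes, was at most 0.170 RPKM in any library. The neutrophil markers summed to 15.7 to 21.8 RPKM in naive and 15.1 to 23.6 at 2 h, and to 32.2 to 38.8 at 24 h. That list did not move as one, since S100a8 rose from 10.2 ± 2.54 RPKM in naive to 29.8 ± 2.74 at 24 h (limma adjusted p = 5.83e-05) and Csf3r fell from 6.51 ± 0.841 to 2.01 ± 0.548 (adjusted p = 3.99e-05, SD, n = 4). The part of either cell type in the Ccl2 and Ccl7 values was not tested.

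Ccl9, a Ccr1 ligand of the 4-exon branch, was at 10.45, 15.6, 11.7 and 15.0 RPKM in naive, at 33.7, 44.2, 50.1 and 49.6 at 2 h and at 17.997, 11.1, 7.71 and 12.6 at 24 h. The 2 h libraries stood apart from all others. The mean rose 3.36-fold (log2 fold change 1.68 ± 0.22 SE, limma adjusted p = 0.000178) and was 3.59-fold lower at 24 h than at 2 h (log2 fold change -1.80, adjusted p = 2.74e-05). Between 250 and 1556 reads per library lay behind these values.

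Ccl6, the other gene of that branch, was at 1289.6, 1492, 1398 and 1481 RPKM in naive, at 1599.7, 1817, 1667 and 1809 at 2 h and at 1395, 1473, 1322 and 1450.1 at 24 h. The lowest 2 h library was above the highest naive library, and the naive and 24 h libraries overlapped. The mean rose 1.22-fold (log2 fold change 0.28 ± 0.058 SE, limma adjusted p = 0.00314) and fell by 0.29 from 2 h to 24 h in log2 units (adjusted p = 0.00142). The 2 h call was lost with quantile normalisation, where the log2 fold change was 0.16 (limma adjusted p = 0.0701), and with no filter (adjusted p = 0.0567).

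The 300 bases around the start of Ccl9 and Ccl6, 250 before it and 50 after, are shown because the genes are neighbours, share a stretch of this sequence and had unlike fold changes. Both are from RefSeq on GRCm38.p6, minus strand, chr11:83578587-83578886 for Ccl9 and chr11:83593038-83593337 for Ccl6. In Ccl9 the capitals mark matches to an AP-1 motif (TGANTCA) and to the kappaB consensus. In Ccl6 they mark the longest run of bases that Ccl9 also holds.
Ccl9: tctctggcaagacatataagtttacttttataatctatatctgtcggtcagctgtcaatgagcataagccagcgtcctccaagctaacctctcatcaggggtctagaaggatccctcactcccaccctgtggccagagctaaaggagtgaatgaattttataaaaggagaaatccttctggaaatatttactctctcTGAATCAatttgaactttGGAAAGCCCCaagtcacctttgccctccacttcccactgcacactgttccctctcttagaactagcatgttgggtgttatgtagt
Ccl6: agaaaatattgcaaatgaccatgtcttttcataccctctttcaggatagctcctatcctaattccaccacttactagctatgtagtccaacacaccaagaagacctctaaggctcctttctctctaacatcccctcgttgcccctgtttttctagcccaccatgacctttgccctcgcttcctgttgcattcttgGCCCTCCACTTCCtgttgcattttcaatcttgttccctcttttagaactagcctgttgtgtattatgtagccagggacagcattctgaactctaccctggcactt

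The shared run was 13 bases long and began 14 bases before the Ccl9 start and 55 bases before the Ccl6 start. A local alignment of the Ccl9 and Ccl6 promoters held 74 columns, 59 of them identical (79.7%). In the other 9 pairs among the 5 ligands with a RefSeq promoter here (Ccl3, Ccl6, Ccl9, Ccl17 and Ccl22) the longest shared run was 10 bases. Read on both strands, the kappaB consensus occurred in 4.51% of 32851 promoters of the same length and in 1 of the 5 ligands, Ccl9, where it begins 35 bases before the start. The AP-1 motif occurred in 7.81% of promoters and, among the ligands, also in Ccl9 alone, 53 bases before the start. These matches describe letters in the window and name no bound factor.

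Ccl17, which attracts T cells through Ccr4, rose at 2 h in some libraries more than in others. Its RPKM was 6.65, 5.90, 3.91 and 5.10 in naive, 14.98, 28.4, 24.0 and 5.65 at 2 h and 4.22, 5.58, 2.25 and 6.19 at 24 h. Replicates 1, 2 and 3 at 2 h were above all naive libraries, and replicate 4 was among them. The mean rose 3.39-fold (log2 fold change 1.41 ± 0.41 SE, limma adjusted p = 0.0180) and was 4.01-fold lower at 24 h than at 2 h (log2 fold change -1.65, adjusted p = 0.00479). The 2 h call was lost when any 1 of 3 libraries was left out, with limma adjusted p of 0.0501 without naive replicate 3, 0.0535 without 2 h replicate 2 and 0.0508 without 2 h replicate 3.

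Ccl22, the other Ccr4 ligand, was at 4.33, 4.95, 3.66 and 4.67 RPKM in naive, at 7.63, 8.80, 8.47 and 3.68 at 2 h and at 2.32, 2.88, 3.48 and 2.50 at 24 h. Replicate 4 at 2 h was again within the naive range, and the other 3 were above it. The difference between 2 h and naive did not pass (log2 fold change 0.54 ± 0.20 SE, limma adjusted p = 0.0561) and passed without 2 h replicate 4 (log2 fold change 0.79, adjusted p = 0.000351). From 2 h to 24 h Ccl22 fell by 1.05 in log2 units (limma adjusted p = 0.00101). All 4 libraries at 24 h were below all 4 naive libraries, with a log2 fold change of -0.51 and a limma adjusted p of 0.0573. That value passed when only the 24 h and naive libraries were fitted (adjusted p = 0.00415) or when 2 h replicate 4 was left out (adjusted p = 0.00194), and it was 0.132 without 24 h replicate 1.

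The dendritic cell markers are given beside Ccl17 and Ccl22, since dendritic cells are known to make both. The 8 markers summed to 5.19 to 5.66 RPKM in naive, 5.09, 3.17, 4.04 and 4.57 in replicates 1 to 4 at 2 h, and 5.13 to 12.2 at 24 h. All 4 sums at 2 h were below the lowest naive sum. Clec9a, which marks cross-presenting dendritic cells, fell from 1.43 ± 0.104 RPKM in naive to 0.492 ± 0.218 at 2 h (limma adjusted p = 0.000932) and was 0.684 ± 0.209 at 24 h. Clec9a met the filter only with its naive libraries, where it was highest, and that call is conditional on it. Fscn1, which marks mature dendritic cells, was 0.533 ± 0.150 RPKM in naive, 0.492 ± 0.236 at 2 h and 3.17 ± 1.35 at 24 h (SD, n = 4). The part of dendritic cells in the Ccl17 and Ccl22 values was not tested.

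The promoters of Ccl17 and Ccl22 are shown for comparison, since the genes are neighbours with a common receptor and had the same order of libraries at 2 h. They are from RefSeq on GRCm38.p6, plus strand, chr8:94810203-94810502 for Ccl17 and chr8:94745434-94745733 for Ccl22. Capitals in Ccl17 mark matches to STAT half-sites, TTC and GAA, 3 or 4 bases apart.
Ccl17: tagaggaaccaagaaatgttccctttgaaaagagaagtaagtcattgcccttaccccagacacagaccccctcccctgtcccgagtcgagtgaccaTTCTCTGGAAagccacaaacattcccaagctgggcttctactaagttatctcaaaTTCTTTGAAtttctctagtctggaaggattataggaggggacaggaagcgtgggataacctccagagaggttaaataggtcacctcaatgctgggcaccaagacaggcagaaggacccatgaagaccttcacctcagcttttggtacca
Ccl22: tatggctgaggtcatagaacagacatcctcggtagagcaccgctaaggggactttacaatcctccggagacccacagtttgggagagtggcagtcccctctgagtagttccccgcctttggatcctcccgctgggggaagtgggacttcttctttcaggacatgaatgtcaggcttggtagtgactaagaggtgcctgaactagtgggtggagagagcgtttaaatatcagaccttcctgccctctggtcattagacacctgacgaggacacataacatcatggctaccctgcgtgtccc

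Half-sites 3 bases apart began 99 bases before the Ccl17 start and those 4 bases apart 154 bases before it. They occurred in 8.30% and 6.95% of all promoters and in no other of the 5 ligands. The longest run of bases shared by the Ccl17 and Ccl22 windows was 8. No match to the 4 motifs was found in the Ccl3, Ccl6 and Ccl22 windows.

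Ccl5, which attracts T cells and monocytes through receptors that include Ccr1 and Ccr3, did not rise. Its RPKM was 0.663, 1.37, 2.34 and 2.59 in naive, 1.46, 0.805, 0.873 and 0.690 at 2 h and 0.903, 1.15, 1.31 and 0.730 at 24 h, on 6 to 21 reads per library. The groups overlapped, and naive replicate 1 was the lowest of all 12 libraries. The log2 fold changes of -0.44 at 2 h (limma adjusted p = 0.142) and -0.38 at 24 h (adjusted p = 0.1803) against naive did not pass. Without naive replicate 1 both passed, at -0.66 (limma adjusted p = 0.0168) and -0.60 (adjusted p = 0.0180).

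T and NK cells are known to make Ccl5, and their markers are given beside it. The 12 markers summed to 9.005, 11.7, 13.9 and 12.3 RPKM in naive replicates 1 to 4, to 2.88 to 8.23 at 2 h and to 1.74 to 2.82 at 24 h. Nkg7, a granule protein of cytotoxic cells, was 1.17, 1.58, 1.83 and 1.68 RPKM in naive, 0.220 to 0.554 at 2 h and 0 to 0.210 at 24 h. Within naive, replicate 1 was the lowest for Ccl5, for the summed markers and for Nkg7. Replicates 3 and 4 were the highest for all of them. The other markers of the list did not all share that order. In naive, Trac was lowest in replicate 4 (0.792 RPKM), and Cd3g was highest in replicate 1 (0.658 RPKM). The 2 h and 24 h groups did not share the naive order either. At 2 h Ccl5 was highest in replicate 1 and the summed markers in replicate 3, and at 24 h they were highest in replicates 3 and 2. From 2 h to 24 h the mean sum went from 5.70 to 2.40 RPKM and mean Ccl5 from 0.957 to 1.02. Unlike the sum and Nkg7, the means of Klrb1c (0.0808 to 0.334 RPKM) and Gzmb (0.360 to 0.431) were higher at 2 h than in naive. The part of these cells in the Ccl5 values was not tested.

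Ccl24, an eosinophil attractant, had single reads in 1 naive and 2 of the 24 h libraries and none elsewhere. The 3 reads that a count of 0 allows correspond to about 0.198 to 0.388 RPKM, depending on the library. That range is approximate, since 1 read in naive replicate 3 is 0.106 RPKM at the recovered gene length and 0.104 in the deposited values. The limits here cover counting error only.

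Ligands that share a neighbourhood or a receptor were also compared within each library. The difference of Ccl9 and Ccl6 in log2(RPKM + 1) was -6.66 ± 0.166 in naive, -5.26 ± 0.216 at 2 h and -6.78 ± 0.440 at 24 h (SD, n = 4), which is 1.39 higher at 2 h than in naive, with no overlap of libraries. The exact two-sided permutation p was 0.0286, the smallest possible here, and 0.137 after adjustment over the 12 pair tests. The difference of Ccl3 and Ccl4 was 1.07 higher at 2 h than in naive (exact permutation p = 0.0571, adjusted 0.137), and 0.49 higher with a pseudocount of 0.1. That of Ccl17 and Ccl22 was 0.87 higher (exact permutation p = 0.0571, adjusted 0.137), and the libraries of both pairs overlapped. The difference of Ccl2 and Ccl7 changed by 0.59 (exact permutation p = 0.0857, adjusted 0.171) and by -0.30 with a pseudocount of 0.1, so its direction depended on the pseudocount. None of the 12 pair tests passed after adjustment.

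**Figure D3:**
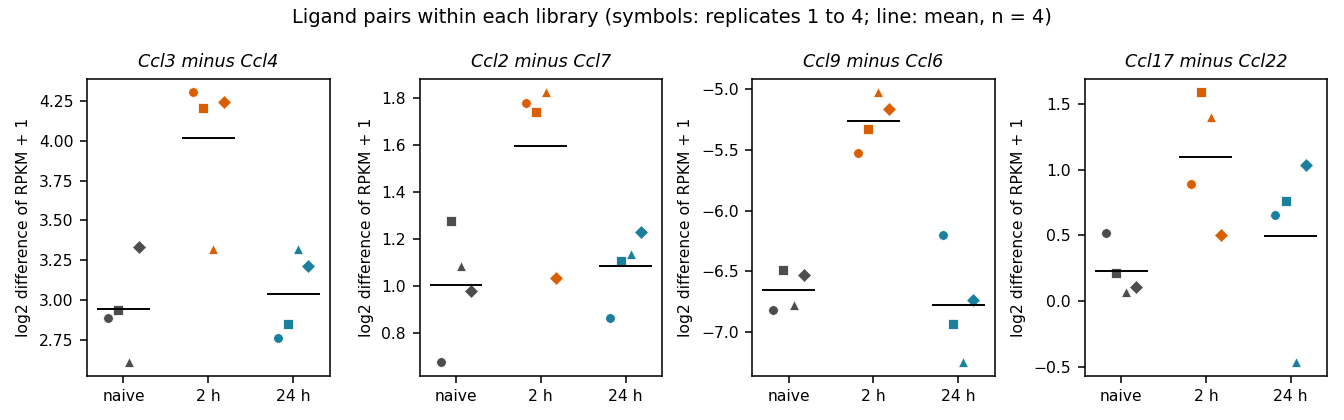
Difference of log2(RPKM + 1) between paired ligands within each library (y axis) in naive, 2 h and 24 h (x axis), with a symbol for each of the replicates 1 to 4 and a line at the mean (n = 4). Ccl9 minus Ccl6 is near -5.26 at 2 h and near -6.66 in naive with no overlap, while the other pairs overlap.

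The 4 libraries at 2 h did not carry the ligands in the same order. For Ccl2 and Ccl7 the order from high to low was replicate 4, 1, 2 and 3, and for Ccl3 it was 1, 4, 2 and 3. For Ccl17 and Ccl22 it was 2, 3, 1 and 4, so that replicate 4 was the highest for Ccl2 and Ccl7 and the lowest for Ccl17 and Ccl22. For Ccl9 the order was 3, 4, 2 and 1. Of the genes outside the family, Rel, an NF-kappaB subunit, had 16.5, 9.29, 8.19 and 15.9 RPKM in replicates 1 to 4, and Il4ra, a receptor chain for type 2 cytokines, had 60.4, 77.4, 81.1 and 53.8. Rel was thus highest in replicates 1 and 4, as were Ccl2 and Ccl3, and Il4ra in replicates 2 and 3, as were Ccl17 and Ccl22. Both were singled out after their values were seen, and 4 libraries give no test of such an order.

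**Figure D4:**
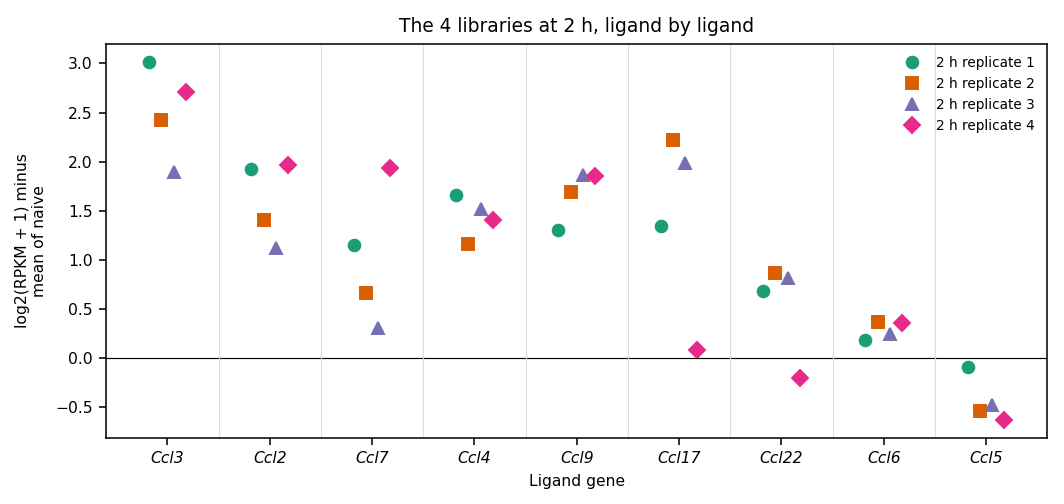
Log2(RPKM + 1) of each 2 h library minus the mean of the naive libraries (y axis) for 9 ligands (x axis), with a symbol and colour for each replicate. Replicate 4 is at 0.08 for Ccl17 and -0.20 for Ccl22, where the other 3 replicates are above 0, and it is the highest for Ccl2 and Ccl7.

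Some receptors of these ligands were measured in the same libraries. Ccr1, the receptor of Ccl3, Ccl5, Ccl6 and Ccl9, was at 51.0, 54.7, 63.2 and 66.3 RPKM in naive, 68.3, 112.9, 119.4 and 81.3 at 2 h and 50.5, 56.5, 41.0 and 43.6 at 24 h. It rose at 2 h, as Ccl3, Ccl6 and Ccl9 did and Ccl5 did not (log2 fold change 0.66, limma adjusted p = 0.0103) and was lower at 24 h than at 2 h (log2 fold change -0.95, adjusted p = 0.000581). Ccr2, the receptor of Ccl2 and Ccl7, fell from 1.41 ± 0.228 RPKM in naive to 0.595 ± 0.190 at 2 h (log2 fold change -0.60, limma adjusted p = 0.000924) and was 0.947 ± 0.0578 at 24 h (SD, n = 4), below naive (adjusted p = 0.0261) and above 2 h (adjusted p = 0.0269). Ccr2 met the filter only with its naive libraries, where it was highest, and its calls are conditional on that. It was at most 0.820 RPKM at 2 h and had a median of 0.959 at 24 h. Markers of other cells were also lower at 2 h. The 8 interstitial macrophage markers summed to 7.67 to 13.6 RPKM in naive, 4.05 to 6.46 at 2 h and 4.09 to 9.85 at 24 h, and the 5 B cell markers to 9.68 to 16.5, 3.20 to 9.64 and 1.56 to 4.45. C1qa, a complement subunit of interstitial macrophages, was 3.49 ± 0.907 RPKM in naive and 0.483 ± 0.156 at 2 h (SD, n = 4, limma adjusted p = 3.23e-05). C1qa too met the filter only with its naive libraries, with at most 0.664 RPKM at 2 h and 0.843 at 24 h. The part of these cells in the Ccr2 values was not tested. Ccr4, the receptor of Ccl17 and Ccl22, was at most 0.243 RPKM, and Ccr3, the receptor of Ccl24, at most 0.0962.

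**Figure D5:**
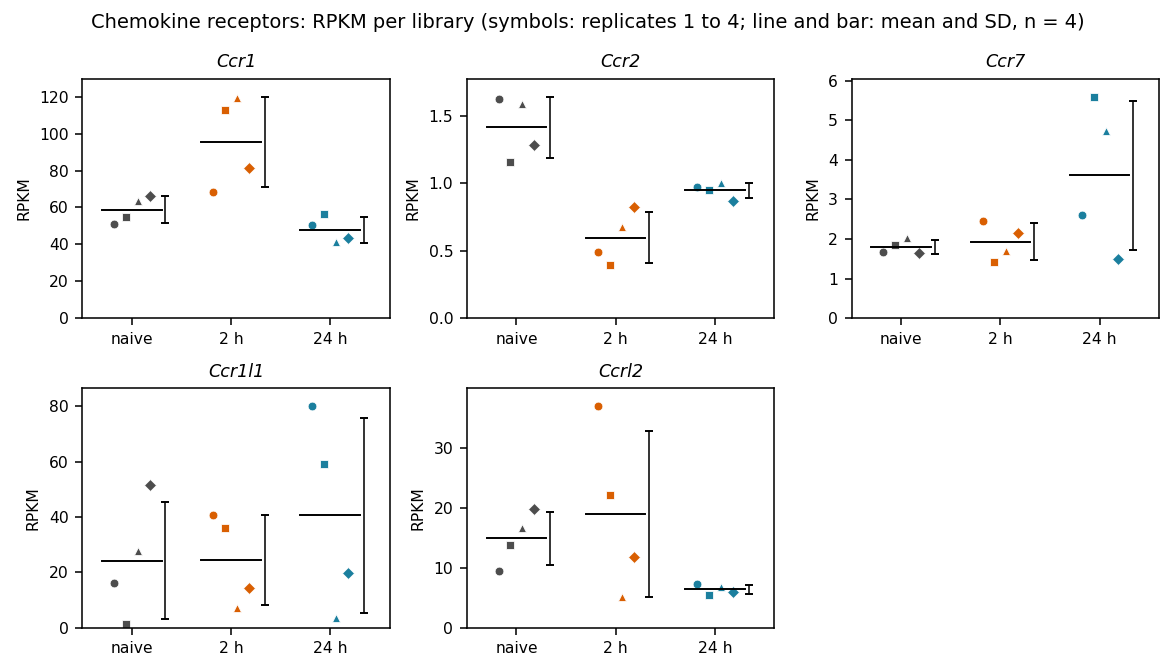
RPKM (y axis, linear, from 0) of 5 chemokine receptor genes in naive, 2 h and 24 h (x axis), with a symbol for each of the replicates 1 to 4, a line at the mean and a bar for the SD (n = 4). Ccr1 is higher and Ccr2 lower in all 2 h libraries than in naive, and Ccr1l1 ranges from 1.38 to 80.1 RPKM across libraries.

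Of the 11 CC receptors listed, 5 were tested, and at 2 h Ccr1 rose, Ccr2 fell and 3 did not pass, where 14.7% of all tested genes rose and 22.0% fell. The lists that follow are to be read against those same shares and against a median log2 fold change of -0.04 over all tested genes. Ccrl2, an atypical receptor that holds chemoattractants at the cell surface, was the only tested one of 5 atypical receptors. It fell from 18.997 ± 13.9 RPKM at 2 h to 6.36 ± 0.802 at 24 h (log2 fold change -1.15, limma adjusted p = 0.0447). None of 11 other CC ligands reached the filter. Ccl11, Ccl19, Ccl20, Ccl26 and Ccl28 were at 0 in all libraries, and Ccl12, a further Ccr2 ligand in mice, was at most 0.915 RPKM.

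Of 10 transcription factors known to drive inflammatory ligands, 4 rose at 2 h (Cebpb, Irf5, Nfkb2 and Rela), 1 fell (Nfkb1) and 5 did not pass, beside 14.7% and 22.0% of all tested genes, and the median log2 fold change was 0.27. Nfkb2, a subunit of NF-kappaB, had 10.6 ± 0.490 RPKM in naive, 13.8 ± 0.739 at 2 h and 6.12 ± 1.18 at 24 h (SD, n = 4), with a log2 fold change of 0.36 at 2 h (limma adjusted p = 0.0169). Of 8 decay factors of ligand mRNA, 2 rose at 2 h and 1 fell, again beside 14.7% and 22.0%, with a median of 0.22. Zc3h12a, an RNase that degrades inflammatory transcripts, was the largest of these rises, from 18.5 ± 1.12 to 57.0 ± 17.9 RPKM (log2 fold change 1.504, limma adjusted p = 0.000252), and was back at 15.6 ± 1.04 at 24 h.

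Among 11 tested genes of the type 2 arm, whose cytokines are known to induce Ccl17, Ccl22 and Ccl24, 4 rose and 3 fell at 2 h. The shares of all tested genes were 14.7% and 22.0%, and the median of the list was 0.15. Arg1, among those that rose, met the filter only with its 2 h libraries. It was at most 0.543 RPKM in naive and had a median of 0.948 at 24 h. Il4ra rose from 43.9 ± 0.770 to 68.2 ± 13.1 RPKM (log2 fold change 0.60, limma adjusted p = 0.00560), while Stat6, its transcription factor, fell by 0.22 in log2 units (adjusted p = 0.0147) and Chil3, a chitinase-like protein, fell by 0.66 (adjusted p = 0.000174). Of 6 tested genes of ligand proteolysis and proteoglycans, 4 rose and 1 fell, beside the same 14.7% and 22.0%, with a median of 0.29. Mmp12, the macrophage elastase that is known to cleave chemokines, rose from 0.670 ± 0.0917 to 4.37 ± 1.79 RPKM (log2 fold change 1.63, limma adjusted p = 0.000323). At 24 h Mmp12 was 0.354 ± 0.414 RPKM. It met the filter only through its 2 h libraries, with at most 0.797 RPKM in naive and 0.970 at 24 h. Of 12 tested genes of receptor coupling and desensitisation, 2 rose and 4 fell at 2 h, beside 14.7% and 22.0% of all tested genes, with a median of -0.03. Rgs14, which shortens signals of G proteins, fell by 0.74 in log2 units (limma adjusted p = 0.000529).

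The genes whose pattern was most like each ligand were taken by Pearson's r on log2(RPKM + 1) over the 12 libraries, which fall into 3 groups, so r mostly reads the difference between groups. For Ccl3 they were Plk3 (r = 0.986, Spearman's rho = 0.874), Trem1 (r = 0.985) and Srgn (r = 0.981). For Ccl2 they were Sde2 (r = 0.966), Plk3 (r = 0.959) and Ccl3 itself (r = 0.957). For Ccl9 they were Aig1 (r = 0.974), Clec4d (r = 0.966) and Ccdc146 (r = 0.961), and for Ccl6 Clec4d came first (r = 0.936). Clint1 was first for Ccl4 (r = 0.976), Sntb2 for Ccl17 (r = 0.963) and Tlk2 for Ccl22 (r = 0.960). For Ccl5 the highest value was lower, 0.838 with Marc2.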

How the data were processed

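RNA of alveolar macrophages was extracted with PicoPure and its polyadenylated part was sequenced, per the labels' protocols. The deposited file gives RPKM for each Ensembl gene in each of the 12 libraries. The submitters' processing notes name bcl2fastq, TopHat2, HTSeq and mm10. Their versions, the annotation, the gene lengths and the strand setting were not given in the sources used here. Symbols and positions came from GENCODE annotation of GRCm38, the assembly of mm10, for 42462 of 43430 genes (97.8%), and all 10 ligands matched. RefSeq promoters matched 5 of the 10.

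The deposited RPKM values are whole multiples of the value of 1 read in each library (tolerance 0.02 of a read), which gave reads per gene and library totals. These recovered reads made up at least 99.8% of each total and covered 11417 of 11419 tested genes. Genes with at least 1 RPKM in at least 4 of 12 libraries were tested with limma 3.58.1 in R 4.3.3 on log2(RPKM + 1). A gene of low level can meet this filter only through the group where it is high. All 12 libraries shared the spread, with a variance trend, two-sided tests and Benjamini-Hochberg adjustment over the tested genes of a comparison (threshold 0.05). This scale understates the change of low genes, and folds are ratios of mean RPKM. Ccl7, Ccl24 and pair differences had exact two-sided permutation tests (Python 3.11.15). The limma fit was tested on simulated data. Motifs were searched in promoter windows of 300 bases.

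The ligands, the pathway and marker lists and the tests were chosen with earlier results of these data known. Named are all 10 ligands, up to 4 genes per pathway list and comparison with the smallest adjusted p, receptors of the ligands, defining markers and the 3 tested genes most like each ligand. Some items that this rule names are not reported here. Each library was left out in turn. Other alternatives were the replicate number as a block, quantile normalisation, median-ratio scaling, pseudocounts of 0.5 and 0.1, library weights, only the compared groups, a constant variance prior, voom on recovered reads, and a filter of 5 RPKM or none.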

Additional observations from a re-analysis of the deposited data

Results flagged for a closer look

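Of 29 sets of 4 libraries examined for the ligands, 2 had a library far from the other 3, and chance alone marks about 1 set in 20. At 24 h, Ccl7 was 0.416 RPKM (4 reads) in replicate 1 and 0.115 to 0.137 (1 read each) in the others, and the gap to the nearest library was 0.928 of the whole range. In naive, Ccl24 had 1 read in replicate 3 and none in the other 3 libraries, a gap of 1 of the range. The reads behind both are few.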

How the results depend on the processing

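The calls for Ccl2, Ccl3, Ccl4 and Ccl9 at 2 h and from 2 h to 24 h kept their direction and passed in every one of the alternatives in which they were tested, and no called value changed sign. With a filter at 5 RPKM, 4 ligands were tested and 4 were called from 2 h to 24 h, and the genes called were 2669 at 2 h and 3923 from 2 h to 24 h, since fewer genes were tested. Against naive at 24 h, 1 ligand, Ccl22, was called with library weights, with the 2 compared groups alone, with a pseudocount of 0.1 and with quantile normalisation, and the cause was not tested. With each library left out, 5 to 7 ligands were called at 2 h, 0 to 1 at 24 h (Ccl22 without 2 h replicate 4 or 24 h replicate 3, Ccl5 without naive replicate 1) and 7 from 2 h to 24 h. Ccl22 was also called at 2 h with median-ratio scaling, quantile normalisation, library weights and voom (limma adjusted p = 0.0353). Median-ratio scaling gave 2984 genes higher and 3011 lower from 2 h to 24 h, against 3534 and 2458.

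Same-numbered libraries did not deviate together over all tested genes (correlations of -0.0426 to 0.0548). A pairing with a small effect, or an effect on few genes, could be missed by this. With the replicate block, 4020, 5107 and 5877 genes were called at 2 h, at 24 h and from 2 h to 24 h, against 4189, 5241 and 5992, and the ligand counts were 6, 0 and 7 as without it. Depth limits Ccl4, Ccl5, Ccl7 and Ccl24 most, which had 0 to 35 reads per library.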
